A study of Mus musculus with 2 samples.

Results

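Ribosome biogenesis and nucleolar factors were examined in cultured mouse macrophages derived from bone marrow (BMDMs), with and without deoxycholic acid (DCA), a secondary bile acid. The list holds 51 genes chosen by name for their role in RNA polymerase I transcription, small nucleolar ribonucleoproteins (snoRNPs), ribosomal RNA processing and pre-subunit assembly. All 51 symbols were found among the 15576 genes of the deposited table, and all 51 passed the filter of a mean FPKM (fragments or reads per kilobase and 1e6 mapped) of at least 1. The DCA library came from wild-type BMDMs given 100 µM deoxycholic acid for 24 h, and the NC library from wild-type BMDMs collected without it. Strain, sex, age, the number of mice behind a culture, the growth factor of the culture and any vehicle in the NC cells are not stated by the labels, which also do not say clearly whether collection followed at once on treatment. There was 1 library per group, so no difference below has a replicate check, and no test across cultures was possible.

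Ribosomes are built in the nucleolus, where RNA polymerase I transcribes a long precursor of the ribosomal RNAs. Box C/D snoRNPs methylate this precursor and box H/ACA snoRNPs convert uridines in it to pseudouridine, while large assemblies cleave it and fold it into the precursors of the small and the large subunit. The pathway is costly, it is raised in growing and dividing cells, and many of its genes are targets of the transcription factor MYC.

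Read totals, in units of 1e6, were 56.6 in the DCA library and 59.2 in the NC library. Of the 15 macrophage markers listed, 14 passed the filter and none was at 0 in both libraries, with Csf1r, the M-CSF receptor gene, at 90.2 FPKM in DCA and 92.3 in NC. RNA of other marrow cells was also present and differed between the libraries. Each of 20 neutrophil markers had the higher value in DCA; their summed level was 4593 FPKM against 3902 in NC, and none was at 0. All 11 B cell markers past the filter were higher too, with a summed level over the whole list of 216.3 FPKM against 174.9, and none at 0. Macrophage markers were lower in DCA in 11 of 14 genes, although their summed level, most of it Lyz2, was 10940 FPKM against 10850. The part of these cells in the differences below was not tested. In bulk RNA, fewer cells of a type and less RNA per cell cannot be told apart.

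Most of the 51 listed genes were slightly lower in DCA, the others were higher, and the sum of the list was level. Ribosome biogenesis genes outside the list did not share this lean as a whole, with 61 lower and 63 higher, but their groups differed. Other RNA polymerase I genes were lower in 7 of 9 cases, and other small subunit factors were higher in 28 of 43. Of the 51 genes, 35 (68.6%) were lower and 16 (31.4%) were higher in DCA. Among all 9656 genes past the filter, 46.5% were lower and 53.5% higher. The median ratio of DCA over NC was 0.979 in the list, with an interquartile range of 0.961 to 1.017, and 1.006 over all genes, with a range of 0.963 to 1.056. On the scale of log2(FPKM + 1), on which the differences of genes with low FPKM are understated, the median difference was -0.026 in the list and 0.0067 over all genes. The 51 genes together drew 201519 reads from the DCA library and 210500 from the NC library, 0.356% of each total, and their ratio was 1.002 (95% interval 0.996 to 1.008). Ncl, Npm1 and Ddx21, all above 1, alone held 27.9% of the reads of the list in DCA and 26.3% in NC. Ratios throughout are of reads scaled to the read totals, and their exact Clopper-Pearson intervals cover counting error only.

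Few of these differences were large. At a limit of 1.1-fold in FPKM + 1, 3 genes were higher (Pop7, Ebna1bp2 and Wdr12), or 5.88% of the list where all genes gave 8.99%. At the same limit 4 genes were lower (Bop1, Gar1, Nhp2 and Ltv1), or 7.84% where all genes gave 4.79%. These shares rest on 3 and 4 genes and lie near those of the whole table. At 1.2-fold there was 1 gene on each side, Pop7 higher and Bop1 lower, where all genes gave 2.11% and 0.715%. No gene of the list reached 1.5-fold, a limit past which 0.342% of all genes were higher and 0.155% lower. The other 44 genes lay between the 1.1-fold limits. Ltv1 and Wdr12 stood just past the limit at fold sizes of 1.1002, and Polr1b and Tsr1 just short of it at 1.0897 and 1.0836. The counting interval lay below 1 for 13 of the 50 genes whose reads could be rebuilt, 26.0% against 20.1% of all genes, and above 1 for 7, 14.0% against 25.6%. It included 1 for the remaining genes, for which counting error alone covers the difference. By position, exons of 18 of the 51 genes overlap another annotated gene, for 12 of them a gene with a value, in each case on the opposite strand.

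The genes spanned a wide range of expression. Levels between genes are compared here as reads per kilobase of merged annotated exon and 1e6 reads, because the lengths behind the deposited FPKM add up all annotated transcripts of a gene. On that scale the mean of the libraries ran from 2.75 for Wdr12 to 101.5 for Npm1, with a median of 11.8. Annotated retained introns lengthen the merged exons of some genes, so the order is approximate. Npm1 was followed by Ncl, with levels of 51.4 in DCA and 48.6 in NC, by Rrp1 with 38.3 in both, and by Ddx21 with 36.9 and 34.1. These 4 most abundant genes all had a ratio above 1, although that of Rrp1 was only 1.001. The next 6 genes in level, Nhp2, Pes1, Noc2l, Mybbp1a, Nop56 and Tcof1, were all lower. The 10 highest levels thus held 4 higher and 6 lower genes, and the other 41 held 12 higher and 29 lower. Across the 51 genes the difference was nearly unrelated to the level, as Pearson's r was -0.064 and Spearman's rho -0.106. The points share both libraries and are not independent.

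**Figure D1:**
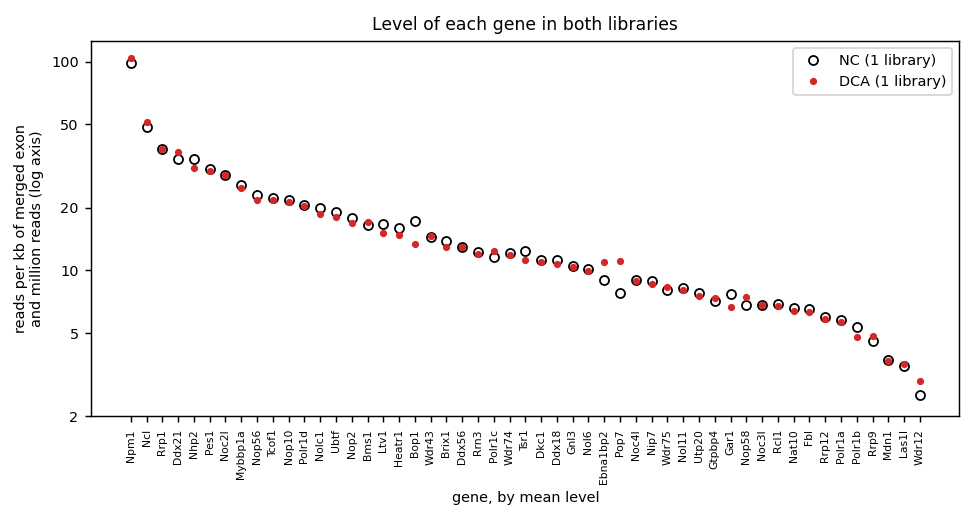
Level of each of the 51 genes in the DCA library (red points) and the NC library (open circles), in reads per kilobase of merged exon and 1e6 reads on a log axis, ordered by mean level. The points of a gene nearly coincide for most genes, and are furthest apart for Pop7 (11.2 against 7.80), Ebna1bp2 and Bop1 (13.4 against 17.2).

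RNA polymerase I and its factors lay on the lower side in 6 of 7 genes, by small amounts, where 46.5% of all genes were lower. Their median ratio was 0.974. None passed 1.1-fold. Polr1b, the second largest subunit of the enzyme, had 3.17 FPKM in the DCA library and 3.54 in the NC library, giving a ratio of 0.894 (0.836 to 0.957), the lowest of the group. Ubtf, which encodes the factor that opens and marks active ribosomal DNA, had 3.50 FPKM in the DCA library and 3.67 in the NC library, giving a ratio of 0.956 (0.924 to 0.988). The intervals of the other genes included 1. Polr1a, the largest subunit, had a ratio of 0.970 (0.928 to 1.014). Rrn3, the initiation factor that recruits the polymerase, had 0.974 (0.925 to 1.024). Tcof1, the nucleolar phosphoprotein treacle, had 6.39 FPKM with DCA and 6.52 without, and a ratio of 0.980 (0.947 to 1.013). The subunits shared by RNA polymerases I and III lay apart from each other in sign, Polr1d at 0.986 (0.941 to 1.032), with 10.2 and 10.3 FPKM, and Polr1c at 1.064 (0.992 to 1.141), and both intervals included 1.

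The proteins of the box C/D snoRNP lay on both sides of 1. Fbl, the methyltransferase fibrillarin, had 4.60 FPKM in the DCA library and 4.76 in the NC library, giving a ratio of 0.965 (0.899 to 1.036). Nop56, a scaffold of the particle, had 4.37 and 4.61 FPKM and a ratio of 0.948 (0.913 to 0.985). Nop58, the homologous scaffold on the other side of the particle, had 4.12 FPKM in the DCA library and 3.79 in the NC library, giving a ratio of 1.088 (1.043 to 1.134). The intervals of this pair of partners thus lay on opposite sides of 1. Rrp9, a protein specific to the U3 particle, had a ratio of 1.058 (0.958 to 1.169). Nolc1, a phosphoprotein that accompanies snoRNPs to the nucleolus, had 3.98 and 4.24 FPKM and a ratio of 0.938 (0.900 to 0.978).

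All 4 core proteins of the box H/ACA snoRNP had the lower value in DCA (median ratio 0.937), where 46.5% of all genes were lower. This was the role group with the lowest median, but it rests on only 4 genes. Gar1, which helps the particle release its product, had 2.98 FPKM in the DCA library (650 reads) and 3.43 in the NC library (784 reads), giving a ratio of 0.868 (0.781 to 0.964). Nhp2, an RNA-binding core protein, had 18.9 FPKM in the DCA library and 21.1 in the NC library, giving a ratio of 0.900 (0.847 to 0.955). Both lay past 1.1-fold, where 4.79% of all genes lay past it on the lower side. Nhp2 shares 44 exonic bases with Rmnd5b on the opposite strand, and the reads of both genes summed gave 0.973 (0.936 to 1.011). Dkc1, the pseudouridine synthase dyskerin, had 4.38 and 4.50 FPKM and a ratio of 0.974 (0.923 to 1.028). Nop10, the smallest core protein, had 21.3 and 21.8 FPKM and a ratio of 0.976 (0.905 to 1.052). The intervals of Dkc1 and Nop10 included 1. The 4 genes together drew 6548 reads from the DCA library and 7297 from the NC library, giving 0.939 (0.908 to 0.971).

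Factors of the small subunit and its processome, the assembly that cleaves the 5′ part of the precursor, stood below 1 in 10 of 13 genes (median ratio 0.976). Of all genes, 46.5% were lower. Ltv1, which escorts the late small subunit precursor to the cytoplasm, had 11.8 FPKM in the DCA library and 13.1 in the NC library, giving a ratio of 0.902 (0.849 to 0.958). Ltv1 was the only gene of the group past 1.1-fold in FPKM + 1. Tsr1, a late factor related to translational GTPases, had 4.02 and 4.44 FPKM and a ratio of 0.906 (0.857 to 0.956). It shares 1240 of its 3837 exonic bases with Srr on the opposite strand, whose ratio was 1.038 (0.955 to 1.127), so its value is uncertain. Heatr1, a large processome scaffold that also acts in RNA polymerase I transcription, had 9.06 and 9.69 FPKM and a ratio of 0.935 (0.904 to 0.966). These were the 3 genes of the group whose interval lay below 1, or 23.1%, near the 20.1% of all genes. In none did it lie above, where all genes gave 25.6%. Nat10, the RNA cytidine acetyltransferase, and the processome proteins Utp20, Nol6, Nol11, Noc4l, Rcl1 and Rrp12 had ratios from 0.969 to 0.989. Bms1, the GTPase of the processome, had 10.6 FPKM in the DCA library and 10.3 in the NC library, giving a ratio of 1.033 (0.992 to 1.076). With Wdr43 and Wdr75, at 1.012 and 1.027, it made up the genes of the group above 1.

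The PeBoW complex, in which Pes1, Bop1 and Wdr12 act together in processing of the large subunit RNAs, held both one of the lowest and one of the highest ratios of the list. Bop1 had 8.76 FPKM in the DCA library (2244 reads) and 11.2 in the NC library (3009 reads), giving a ratio of 0.780 (0.739 to 0.825). It ranked 43 from the lowest of the 9656 tested differences. Pes1 had 12.5 and 12.8 FPKM and a ratio of 0.979 (0.942 to 1.018). Wdr12 had 1.82 FPKM in the DCA library (1999 reads) and 1.56 in the NC library (1797 reads), giving a ratio of 1.164 (1.092 to 1.242). The 3 intervals did not overlap each other. Bop1 (ENSMUSG00000022557, GRCm38 chromosome 15, 76452989 to 76477277, minus strand) shares 50 of its 2957 exonic bases with Mroh1 on the opposite strand, and the strand setting of the counting is not given. Mroh1 drew 11907 reads from the DCA library and 13148 from the NC library, giving 0.948 (0.925 to 0.972), so both genes lay below 1. Hsf1, the neighbouring gene that starts 145 bases away in the other direction, had a ratio of 1.02 (0.960 to 1.084). Wdr12 (ENSMUSG00000026019, chromosome 1, 60069785 to 60098645, minus strand) shares 61 exonic bases with Carf, whose ratio was 0.984 (0.892 to 1.085).

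**Figure D2:**
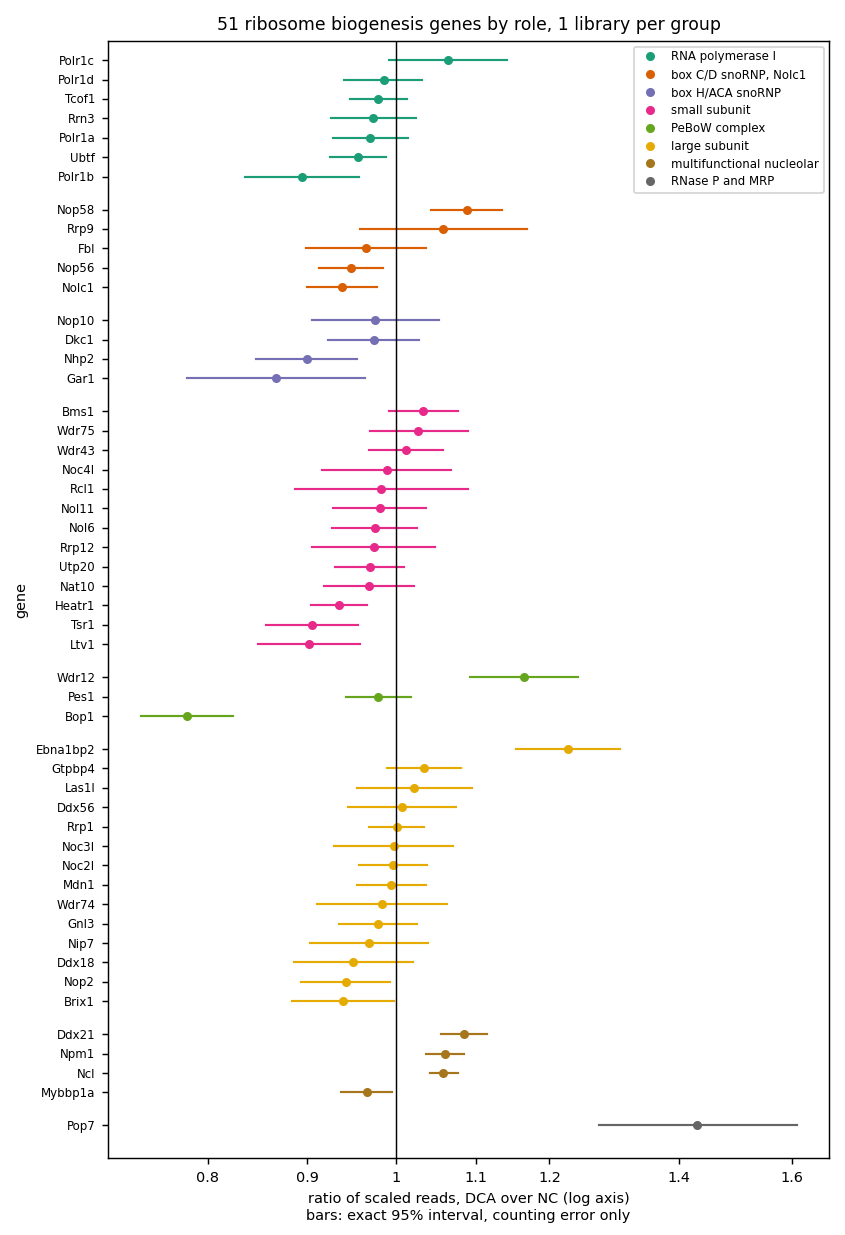
Ratio of scaled reads, DCA over NC, for the 51 genes on a log axis, grouped by role, with exact 95% intervals that cover counting error only. Box H/ACA genes all lie below 1, Ddx21, Npm1 and Ncl lie above it, and Bop1 (0.780), Ebna1bp2 (1.226) and Pop7 (1.43) stand furthest out.

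The other large subunit factors were close to level, with 9 of 14 genes below 1 and 0.996 as the median ratio. Ebna1bp2, a nucleolar protein needed for maturation of the large subunit RNAs, stood out with 6.64 FPKM in the DCA library (2210 reads) and 5.41 in the NC library (1886 reads), giving a ratio of 1.226 (1.153 to 1.305). It ranked 225 from the highest of all tested differences, and its exons (ENSMUSG00000028729, chromosome 4, 118620799 to 118627776, plus strand) overlap no other annotated gene. On the lower side, the RNA cytosine methyltransferase gene Nop2 had a ratio of 0.942 (0.894 to 0.994) and Brix1 one of 0.939 (0.884 to 0.997). For the most abundant genes of the group the interval included 1. Rrp1 had 16.6 FPKM in both libraries, a ratio of 1.001 (0.969 to 1.034), and Noc2l had 14.7 in both, a ratio of 0.997 (0.957 to 1.038). Noc3l, which pairs with Noc2l, the AAA ATPase Mdn1, the endonuclease subunit Las1l, the helicases Ddx18 and Ddx56, the GTPases Gnl3 and Gtpbp4, and Nip7 and Wdr74 had ratios from 0.951 to 1.034, all with intervals that included 1. Gtpbp4 has 7 annotated pseudogenes that carry its name, so its reads are uncertain. Pseudogenes under other names were not looked for, so this limit may hold for other genes of the list too.

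The abundant nucleolar proteins with several functions were higher in 3 of 4 genes, where 53.5% of all genes were higher. Npm1, the histone and ribosome chaperone nucleophosmin, had 44.8 FPKM in the DCA library (15750 reads) and 42.2 in the NC library (15549 reads), giving a ratio of 1.060 (1.037 to 1.084). Ncl, nucleolin, had 37.2 and 35.1 FPKM and a ratio of 1.058 (1.041 to 1.076). Ddx21, a helicase that senses RNA polymerase I and II transcription, had 33.2 and 30.6 FPKM and a ratio of 1.084 (1.055 to 1.114). Small as they are, the intervals of these 3 ratios lay above 1, with 10443 to 29630 reads behind each value. Mybbp1a, a nucleolar protein that binds MYB, had 8.73 and 9.04 FPKM and a ratio of 0.966 (0.937 to 0.996), on the other side of 1.

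Pop7, a protein subunit shared by RNase P, which trims transfer RNA, and RNase MRP, which cleaves the ribosomal precursor, had the highest difference of the list. It had 6.45 FPKM in the DCA library (682 reads) and 4.51 in the NC library (499 reads), giving a ratio of 1.43 (1.273 to 1.609), and ranked 53 from the highest among 9656 genes. Its exons (ENSMUSG00000029715, chromosome 5, 137501438 to 137502518, minus strand) overlap no other annotated gene. Of the 8 other RNase P and MRP genes past the filter, 6 were lower and 2 higher (median ratio 0.964). Pop1, the largest subunit, had 1.27 FPKM in the DCA library and 1.52 in the NC library, giving a ratio of 0.840 (0.755 to 0.933), and Rpp25l had 12.5 and 14.5, a ratio of 0.866 (0.776 to 0.965). Pop5 and Rpp14 lay above 1, at 1.102 (1.003 to 1.211) and 1.090 (1.002 to 1.185). Rpp40 missed the filter, and from 479 reads in DCA and 328 in NC had a ratio of 1.528 (1.325 to 1.764). Rpp25 had 11 reads in DCA and 0 in NC.

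In the wider pathway, genes on the lower and on the higher side were about equal in number. Of 128 other ribosome biogenesis genes in the table, 124 passed the filter, and 61 of them (49.2%) were lower and 63 higher (median ratio 1.005). At 1.1-fold in FPKM + 1, 10 were higher (8.06%) and 8 lower (6.45%), where all genes gave 8.99% and 4.79%. None reached 1.2-fold in FPKM + 1. The ratios of reads ran from 0.829 to 1.251, the highest being that of Znhit3 (1.085 to 1.444). Other RNA polymerase I genes lay below 1 in 7 of 9 cases (median ratio 0.960). Among these, Taf1c, a subunit of the selectivity factor, had 1.39 FPKM in the DCA library and 1.68 in the NC library, giving a ratio of 0.829 (0.760 to 0.904), while the subunit gene Polr1f had 7.91 and 7.03 FPKM and a ratio of 1.124 (1.064 to 1.188). Other small subunit factors were mostly higher, 28 of 43 (median ratio 1.034). The helicase gene Ddx49 had 5.77 FPKM in the DCA library and 4.75 in the NC library, giving a ratio of 1.216 (1.143 to 1.295), and Pwp2 and Utp18 of the processome had ratios of 1.147 and 1.142. Pdcd11, also of the processome, had 5.37 and 5.99 FPKM and a ratio of 0.896 (0.857 to 0.938). Other large subunit factors were divided, higher in 20 of 43, with Mak16 at a ratio of 1.171 (1.114 to 1.232). Genes of snoRNP assembly were higher in 6 of 8 and those of the RNA exosome in 5 of 13. The examples named here were chosen after their values were seen. Exons of Znhit3, Taf1c, Ddx49, Pdcd11 and Mak16 overlap another annotated gene, so their values are less certain.

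**Figure D3:**
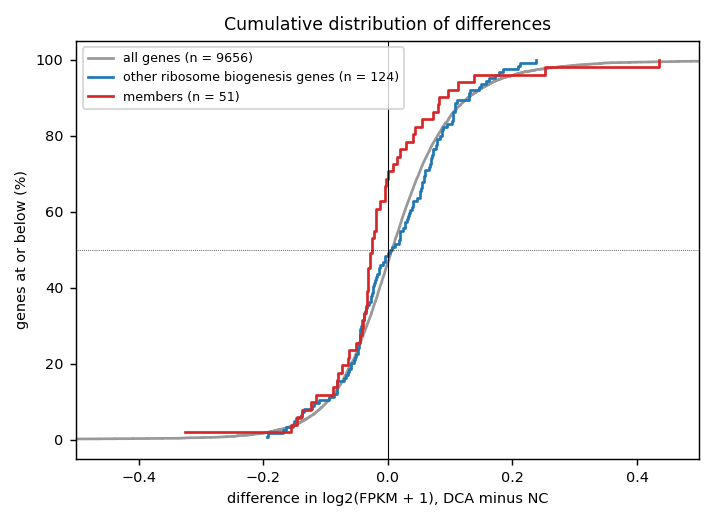
Cumulative share of genes by difference in log2(FPKM + 1), DCA minus NC, for the 51 members (red), 124 other ribosome biogenesis genes (blue) and all 9656 genes past the filter (grey). The few genes beyond the axis limits are not drawn. The red curve crosses the 50% line at -0.026, left of the others, which cross it at 0.0054 and 0.0067.

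The promoters were examined for the E-box CACGTG, the canonical site of MYC and its partner MAX, in RefSeq windows from 250 bases before to 50 after an annotated start (GRCm38.p6). The motif reads the same on both strands. Windows were found for 45 of the 51 genes, and 10 of the 45 (22.2%) held the motif. It was found in 16.0% of 106 other ribosome biogenesis genes with a window, in 12.3% of the 7784 genes past the filter with a window, and in 8.09% of all 27025 genes of the promoter table. The 10 genes are shown because 9 of them lay on the lower side, with 30 bases around each motif, 5′ to 3′ on the strand of the gene and with the motif in capitals, from the lowest ratio to the highest:
Ltv1, chr10:13193092-13193121, minus strand: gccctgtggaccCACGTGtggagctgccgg
Tsr1, chr11:74898092-74898121, plus strand: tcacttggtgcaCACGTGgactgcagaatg
Nop2, chr6:125131811-125131840, plus strand: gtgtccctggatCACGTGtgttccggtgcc
Mybbp1a, chr11:72441347-72441376, plus strand: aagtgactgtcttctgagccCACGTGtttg
Utp20, chr10:88826765-88826794, minus strand: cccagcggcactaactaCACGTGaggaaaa
Rrn3, first motif, chr16:13780472-13780501, plus strand: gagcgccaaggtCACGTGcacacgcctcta
Rrn3, nearer motif, chr16:13780639-13780668, plus strand: ttacgctctgctCACGTGggccgcgtcccg
Pes1, chr11:3963965-3963994, plus strand: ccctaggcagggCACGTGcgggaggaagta
Nol11, chr11:107189407-107189436, minus strand: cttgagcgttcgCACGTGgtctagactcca
Mdn1, chr4:32657139-32657168, plus strand: caacgtgaattccttcacCACGTGtgtgtc
Wdr43, chr17:71616220-71616249, plus strand: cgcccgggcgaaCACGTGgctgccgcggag

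Positions are counted from the start on which each RefSeq window was built, which was the first base of the RefSeq gene for 28 of the 53 windows of the list, some genes having several. In Pes1 the motif began at base 3, in Wdr43 at base 18, in Tsr1 at base 25, in Ltv1 at base 29, in Utp20 at base 38, in Mdn1 at base 39 and in Mybbp1a at base 41. It began 43 bases before the start in Nol11, 60 in Nop2, and 48 and 215 in Rrn3. Counted from the first base of the GENCODE gene, the position differed by at most 31 bases in these genes except Wdr43, where the motif began at base 338. Of the 10 genes, 9 (90.0%) were lower in DCA, with ratios from 0.902 for Ltv1 to 1.012 for Wdr43 and a median of 0.971. The counting interval lay below 1 only for Ltv1, Tsr1, Nop2 and Mybbp1a, and the value of Tsr1 is uncertain, as it overlaps Srr. For the other genes with the motif the interval included 1. Of the 35 genes with a window but no motif, 21 (60.0%) were lower; the median ratio was 0.986 and the range 0.868 to 1.43. Over all tested genes the same division gave 50.5% lower among 959 genes with the motif and 46.3% among 6825 without, and among the other ribosome biogenesis genes past the filter 58.8% of 17 against 49.4% of 83. With 10 genes, the shares are a description. The motif was chosen with the differences known, and a match in a window does not show that a factor is bound. Myc itself had 5.28 FPKM in the DCA library and 5.33 in the NC library, giving a ratio of 0.990 (0.948 to 1.034), and Max a ratio of 0.970 (0.937 to 1.004). The rebuilt reads of Myc did not come out whole and were rounded. Of 10 MYC network genes past the filter 5 were higher and 5 lower (median ratio 1.008). Among the repressors that compete for MAX, Mxd1 had 25.7 and 22.5 FPKM, a ratio of 1.141 (1.112 to 1.170). Mxd3, Mxd4 and Mga also lay above 1, at 1.236 (1.065 to 1.436), 1.059 (1.019 to 1.101) and 1.040 (1.009 to 1.073). Mxi1 had 0.979 (0.934 to 1.025), and Mnt had 9.67 and 11.4 FPKM, a ratio of 0.847 (0.809 to 0.887).

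**Figure D4:**
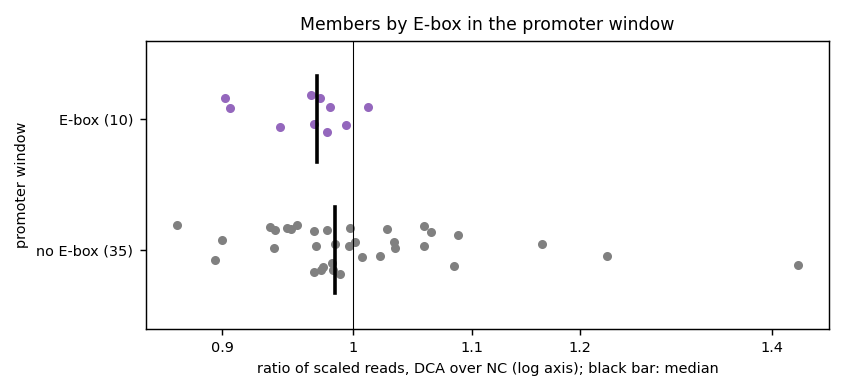
Ratio of scaled reads, DCA over NC, on a log axis for the 10 genes with an E-box in the promoter window (purple) and the 35 without (grey), with medians as black bars. Of the purple points, 9 lie below 1 and the remaining point, Wdr43, lies at 1.012, while the grey points run from 0.868 to 1.43.

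Several of these genes also carry snoRNAs. An annotated snoRNA lay within the gene on its strand in 7 of the 51 genes (13.7%), against 2.14% of 9626 protein-coding genes past the filter. They were Nop56 with 5, Nop58 with 4, Wdr43, Gnl3 and Ncl with 3 each, Tsr1 with 2 and Dkc1 with 1. Of these 7 hosts 4 were lower and 3 higher, and their median ratio of 0.979 equalled the 0.979 of the 44 genes that hold none. The snoRNAs that overlap exons of Nop56, Nop58, Ncl and Gnl3 have no deposited value, and the others were not looked up.

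Genes of dividing cells were measured in the same libraries because ribosome production rises in dividing cells. Of 12 such markers 9 were lower in DCA (median ratio 0.954), at a summed level of 295.3 FPKM in DCA against 303.4 in NC, and none was at 0. The replication genes Mcm2, Mcm3, Mcm5, Mcm6 and Pcna had ratios from 0.907 to 0.961, all with intervals below 1. The nucleotide synthesis gene Tk1 had 0.927 (0.880 to 0.976). For Rrm2 at 0.995 (0.962 to 1.029) and Tyms at 0.953 (0.894 to 1.015) the interval included 1. Markers of later phases of the cycle lay on both sides. Mki67 and Top2a had ratios of 1.027 (1.013 to 1.042) and 1.037 (1.021 to 1.054), Ccnb1 1.035 (0.984 to 1.089), and Cdk1 0.940 (0.899 to 0.983). The small lower shift of the ribosome biogenesis list stood beside these values, beside the macrophage median of 0.952, and beside the neutrophil and B cell medians of 1.152 and 1.190. The part of each in the shift was not tested.

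**Figure D5:**
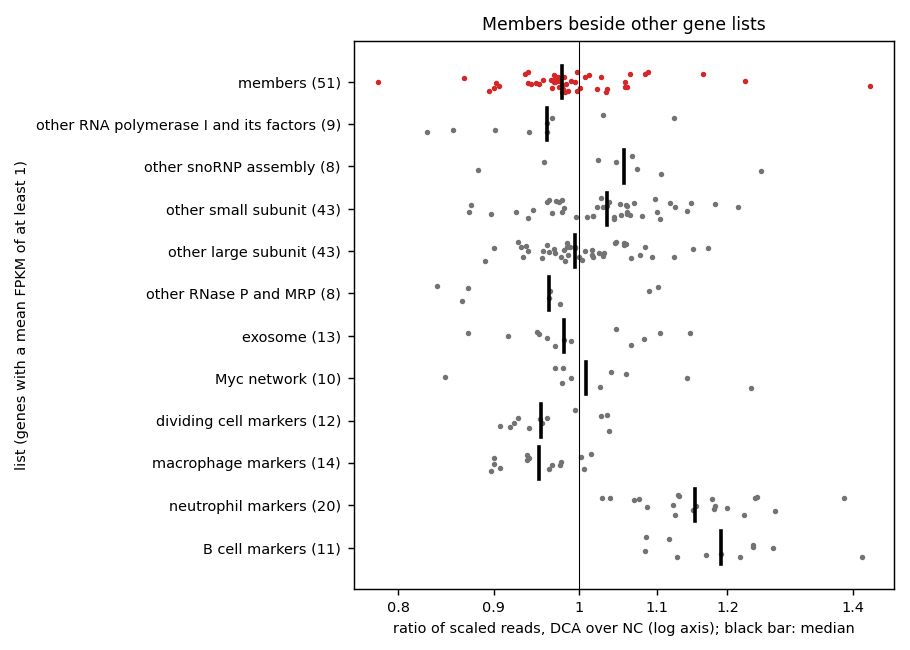
Ratio of scaled reads, DCA over NC, on a log axis for each gene past the filter in the member list (red) and in other lists (grey), with medians as black bars and the number of genes in brackets. The medians run from 0.952 for macrophage markers to 1.190 for B cell markers, with the members at 0.979 and the other small subunit factors at 1.034.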

How the data were processed

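FPKM values for both libraries were deposited by the authors. Tools named per the submitters' processing notes, with no role, were DESeq2 3.0, HTSeq 0.6.0, STAR 2.5.0c, bedtools 2.17.0 and Picard 1.126, on the build GRCm38 (mm10). Gene lengths, strand setting and filters are not stated in the labels. Columns were matched to libraries by name, and libraries to groups by the treatment label.

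Multiplying FPKM by the summed length of a gene's GENCODE vM21 transcripts (15548 of 15576 identifiers found) and by a single total per library gave whole numbers, to within 0.05 read in both libraries, for 12068 of 12491 genes under 5000 reads (96.6%); chance gives 1%. These rebuilt reads underlie the ratios. Of the 51 members 50 came out whole, and Noc2l was rounded. Reads from PCR copies are not independent, so true counting error exceeds the 95% intervals.

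Differences are log2(FPKM + 1), DCA minus NC, where the mean FPKM is 1 or more. With 1 library per group nothing was tested. Read recovery, fold limits and intervals were checked on simulated counts. The members and lists were chosen with earlier results of these data known. Values are printed for every member past 1.1-fold, the 2 most abundant of each role group, and all of PeBoW, box H/ACA and Pop7; further genes were chosen after their values were seen. Alternatives were pseudocounts of 0.1 and 5, no filter, a filter of 5, rescaling to 1e6 or by the median of ratios, leaving out genes with overlapping exons and, added after seeing the data, ratios without a pseudocount. Scripts used Python 3.11.15, pandas 2.3.3 and scipy 1.17.1.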

Additional observations from a re-analysis of the deposited data

How the results depend on the processing

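The median difference of the 51 genes was negative in every setting tried, from -0.037 to -0.0144, and the share of them that was lower ran from 65.5% to 72.5%, where the share over all genes ran from 46.2% to 52.2%, both highest with the values scaled to an equal sum. The medians of the role groups kept their sign in each setting that left the group a gene; box C/D had none with a mean FPKM of at least 5 and PeBoW none without overlapping exons. Counts fell where fewer genes were tested. With a mean FPKM of at least 5, which leaves 29 of the 51 genes, 10 were higher and 19 lower, and of 67 other ribosome biogenesis genes 38 were higher and 29 lower. Without genes with overlapping exons 33 remained, 10 higher and 23 lower, with 2 lower past 1.1-fold, and of 72 other genes 42 were higher and 30 lower. With pseudocount 5, 1 gene was past 1.1-fold on the lower side and 2 on the higher. Under both rescalings 4 were past it on the lower side and 2 on the higher, as Wdr12 fell short of the limit. With pseudocount 0.1, and also with ratios of rebuilt reads, 6 were past it on the lower side and 3 on the higher. Polr1b and Tsr1 were the genes added on the lower side. The median of the PeBoW genes was -0.1763 with a mean FPKM of at least 5, which leaves out Wdr12. Single-gene differences were compared under the settings that can move a gene's own value (pseudocount, scaling and rebuilt reads). Of these, 253 moved by less than the half-width of their counting interval on the log2 scale. The other 2 moved by more, Bop1 at -0.238 and Ebna1bp2 at 0.160 with pseudocount 5. No paired analysis was possible because each group has 1 library. With single libraries, differences of a few percent cannot be set against the spread between cultures, and the median half-width of a counting interval was 5.42% of the ratio.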
